A study of Homo sapiens with 9 samples.

Results

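A pair of lines with the same gene knocked out were set against each other: JAG1 knockout clone 2 (3 samples) and JAG1 knockout clone 1 (3 samples), which are 6 of the 9 RNA-seq libraries of the series. Both were made from MDA-MB-231-D3H2LN, a human breast cancer line derived from the triple-negative, mesenchymal-like line MDA-MB-231. Per the labels, Cas9 protein with guide RNAs against 2 places of one JAG1 exon was transfected, and homozygous clones were grown out from single cells in high-glucose DMEM with serum. The third group, 3 libraries of the same line that still expresses JAG1, is used here only as a reference level. The count columns of each clone were chosen by the sample labels, joined by gene symbol, and compared over all 16921 genes with enough counts to test. Each clone is 1 line that started from 1 cell, so a difference between the clones is a difference between 2 lines of the same intended genotype. The labels do not say whether the replicates were grown as separate cultures. P-values therefore reflect the variation among these libraries alone, and it may be technical.

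JAG1 encodes a transmembrane ligand that binds Notch receptors on neighbouring cells. Binding leads to cleavage of the receptor, and its freed intracellular domain joins the DNA-binding protein RBPJ and MAML coactivators in the nucleus to switch on targets such as the HES and HEY repressors. In breast cancer the pathway is known for roles in self-renewal, invasion and the exchange of signals between tumour and surrounding cells.

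Total counts were 18641486, 19913863 and 16890890 in clone 1 replicates 1, 2 and 3, and 18794082, 21006376 and 22456164 in clone 2. The number of genes with a count was 23460, 22768 and 24349 in clone 1 and 19905, 22792 and 21395 in clone 2. Markers of the parental line were high in all 6 clone libraries, with VIM at 770 to 2301 CPM (counts scaled to a common effective library size), AXL at 1129 to 2277 and EGFR at 240 to 382. ESR1, PGR and CDH1 were at 1.29 CPM or less, while EPCAM (11.5 to 25.4) and ERBB2 (75.3 to 98.5) were measurable. Of 6 immune and blood markers 4, CD3E, TYROBP and HBB among them, had no count in any clone library. CD14 was at 0.88, 1.33 and 1.06 CPM in clone 1 and 0.186, 0.436 and 0.332 in clone 2. The 6 summed to 1.19 to 1.76 CPM in clone 1 and 0.186 to 0.436 in clone 2. The share of counts from mitochondrially encoded mRNAs was 2.28, 3.61 and 4.91% in clone 1 and 0.843, 1.79 and 1.01% in clone 2, so the clones did not overlap in it (wild type 2.52, 3.67 and 1.66%). Because of that the share and the clone cannot be told apart in full. In bulk RNA, fewer cells of a kind and less RNA per cell cannot be told apart either.

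The edited gene was present as RNA in both clones. JAG1 (GRCh38, chr20:10637684-10674107, minus strand) had 2130, 1699 and 1657 raw counts in clone 1, 1230, 1406 and 1190 in clone 2, and 5069, 3803 and 3592 in wild type. That is 110, 80.8 and 92.3 CPM in clone 1 against 76.1, 68.1 and 56.5 in clone 2, both below every wild-type library (246, 161 and 181). The lowest clone 1 library was above the highest of clone 2. JAG1 was lower in clone 2 by a log2 difference of −0.50 (SE 0.18, adjusted p = 0.0398 by edgeR's quasi-likelihood test). It no longer passed when clone 1 replicate 1 or 3, or clone 2 replicate 2 or 3, was left out (adjusted p up to 0.164). Counts over the whole gene do not show the edited site or the protein.

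None of the other 7 tested Notch receptors and ligands passed the test between the clones in the main fit. Without clone 2 replicate 2, 1 of them was called higher. With a GC and length correction 2 of the 8 were called lower, JAG1 among them. NOTCH2, a receptor, was at 226, 206 and 245 CPM in clone 1 and 321, 252 and 329 in clone 2, without overlap but above the threshold (log2 difference 0.41, SE 0.16, adjusted p = 0.0535). NOTCH1 was at 35.6 to 45.2 CPM in clone 1 and 36.6 to 51.6 in clone 2 (log2 difference 0.16, SE 0.18, adjusted p = 0.503). JAG2, the closest relative of JAG1, was at 29.2 to 39.3 against 26.1 to 29.7 CPM (log2 difference −0.29, SE 0.15, adjusted p = 0.149). NOTCH3 (−0.24), NOTCH4 (−0.02) and DLL1 (−0.11) had differences smaller than their standard errors of 0.26, 0.45 and 0.38.

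Other genes of the pathway were called in larger number. Over all tested genes, 33.9% were called, 19.8% higher in clone 2 and 14.1% lower, and the median log2 difference was −0.01. Over protein-coding genes above a log2 CPM of 4 the shares were 33.3% and 12.3%, with a median of 0.21. Of 25 genes for receptor glycosylation, cleavage, ligand endocytosis and the nuclear complex, 9 rose in clone 2, 1 fell and 15 were not called, with a median log2 difference of 0.19, close to the values of protein-coding genes at such levels. Of the 25, 1 was called higher and 0 lower with the mitochondrial share as a covariate. NEURL1B, a ubiquitin ligase that acts on Notch ligands, was at 17.9, 15.8 and 14.8 CPM in clone 1 and 29.3, 35.9 and 35.6 in clone 2, with wild type (25.6, 25.6 and 27.3) between them (log2 difference 1.05, SE 0.15, adjusted p = 0.000164). RBPJ rose from 290, 297 and 256 to 432, 404 and 450 CPM (0.61, SE 0.16, adjusted p = 0.0103), a call that failed without clone 1 replicate 3 or clone 2 replicate 3. MAML2 (0.87, not called without clone 2 replicate 3) and MIB1 (0.78), the ligase that sends ligands into endocytosis, rose too. So did ITCH (0.84), a ligase that acts on Notch, and POFUT1 (0.78), which adds the O-fucose that Notch needs; both lie in the stretch of chromosome 20 described below. The member that fell was POGLUT1, the O-glucosyltransferase of Notch (18.4, 15.5 and 15.2 against 9.84, 10.9 and 10.3 CPM, log2 difference −0.66, adjusted p = 0.0114).

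Among 20 tested Notch target genes, 10 rose in clone 2 and 0 fell, with a median of 0.57. None (0 of 20) was called with the mitochondrial share as a covariate. The 10 do not include the classical repressor HES1, which stood at 24.8, 24.9 and 23.1 CPM in clone 1 and 31, 20.6 and 20.5 in clone 2 (log2 difference −0.02, SE 0.17, adjusted p = 0.949), below wild type at 43.3, 39.7 and 40.8. HEY1 (−0.58, SE 0.47) and HES4 (−0.74, SE 0.28, adjusted p = 0.0507) were not called either. The members with the smallest adjusted p were CCND1, the G1 cyclin, SOX9, a progenitor transcription factor, and GATA3, a luminal one, all of which are also known to answer to other pathways. SOX9 was at 111, 119 and 107 CPM in clone 1, 232, 221 and 271 in clone 2 and 140, 138 and 193 in wild type (log2 difference 1.10, SE 0.16, adjusted p = 0.000161). HEYL rose from 1.19, 1.38 and 2.51 to 2.72, 4.6 and 4.84 CPM (1.27, SE 0.40, adjusted p = 0.0214), a call that held in 5 of 9 fits that each left out 1 library. Without clone 2 replicate 3, 4 of the 20 targets were called higher, and without clone 1 replicate 1 or 2 it was 6. Of the 25 pathway genes 4 were called higher without clone 2 replicate 3 and 5 without clone 1 replicate 3, and up to 4 were called lower without one wild-type library.

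**Figure D1:**
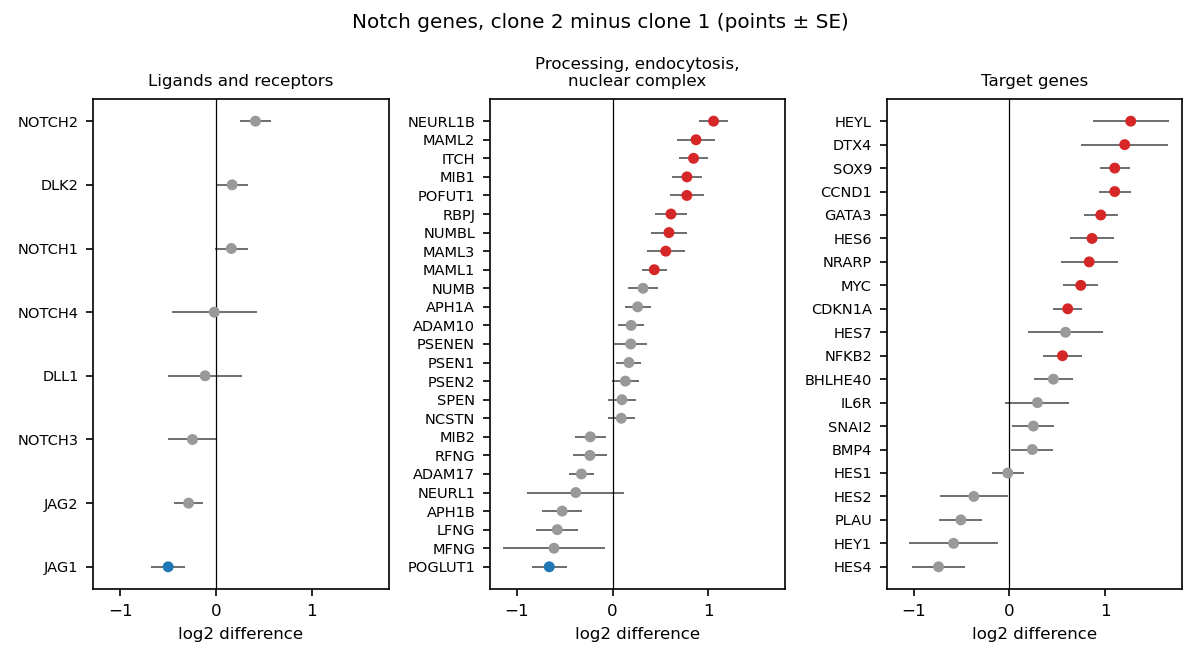
Log2 difference (clone 2 minus clone 1, horizontal axis) of each tested Notch gene, with its standard error as a bar; red points were called higher, blue points lower and grey points not called. JAG1 is the called ligand, and the 10 called target genes all lie to the right of 0 while HES1 lies at −0.02; with the mitochondrial share as a covariate 0 of the target genes were called.

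Between the clones, 5733 of 16921 genes were called, 3353 higher and 2380 lower in clone 2. The same fit called 933 genes between clone 1 and wild type and 1008 between clone 2 and wild type, which share the wild-type libraries. In 47.4% of the tested genes all libraries of one clone lay above all of the other. Most differences were modest in the upward direction and larger downward: 741 genes were more than 2-fold higher and 1203 more than 2-fold lower, and 56 and 126 passed 8-fold. The count was 3518 without clone 2 replicate 3 and 3756 without clone 1 replicate 3. With the log2 mitochondrial share of each library as a covariate, chosen after the data were seen, 391 genes were called (266 higher, 125 lower), of which 376 were among the 5733.

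Direction went with expression level and gene type. The number of genes with a count also differed among the libraries, as given above, and its part in this was not tested. Genes at or below a log2 CPM of 0 had a median log2 difference of −0.75, those from 4 to 6 one of 0.15, and those from 6 to 8 one of 0.28. Of 13430 protein-coding genes, 3269 were called higher and 1751 lower, whereas of 3491 genes of all other or unknown types 84 were called higher and 629 lower. Within protein-coding genes above a log2 CPM of 4 the median was −0.27 for 60 genes of up to 1000 exonic bases, 0.18 for 2082 genes of 2000 to 4000 and 0.25 for 2028 genes above 8000. Of the 10 most abundant called genes 5 were higher and 5 lower. ACTB, cytoplasmic beta-actin, was at 3139, 3193 and 2348 CPM in clone 1 and 6982, 5398 and 6703 in clone 2 (log2 difference 1.14, SE 0.21, adjusted p = 0.000910). HSP90AA1 (0.92), ENO1 (0.97), HMGA1 (0.89) and ACTG1 (0.83) rose with it, while the mitochondrially encoded MT-ND4, MT-CO1, MT-ATP6 and MT-CO3 fell (−1.53 to −1.29). PLEC, the cytoskeletal linker plectin, fell by 0.58 on the log2 scale, a call lost without any 1 of 4 clone libraries.

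**Figure D2:**
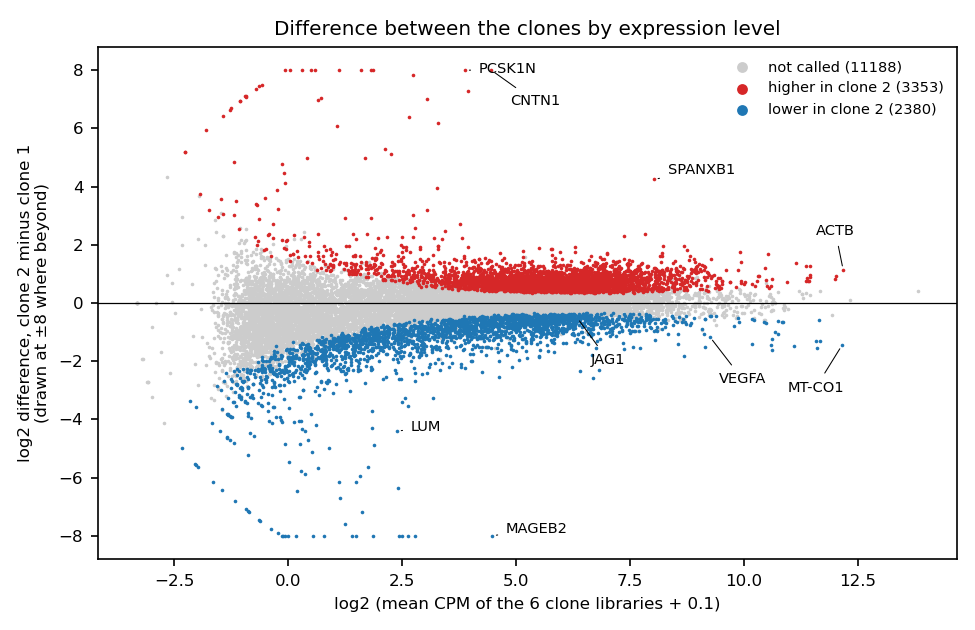
Log2 difference (clone 2 minus clone 1, vertical axis, drawn at ±8 where beyond) against the log2 mean CPM of the 6 clone libraries, 1 point per tested gene. The 3353 genes called higher (red) sit mostly at high levels, and the 2380 called lower (blue) are spread over all levels, 708 of them between log2 CPM 4 and 6; fitted values of genes at 0 in a clone are not measured folds.

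For most called genes the wild-type level lay between the clones. The wild-type mean was between the clone means for 5200 of the 5733 (90.7%), above both for 341 and below both for 192. It was nearer to clone 1 for 1698 of the genes that rose and nearer to clone 2 for 1655, and for the genes that fell the numbers were 1318 and 1062. For 1135 called genes, 820 higher and 315 lower, all 3 wild-type libraries lay between the libraries of the 2 clones. These genes were picked by the difference between the clones, which itself favours a wild-type level between them. A place between is not a call against wild type. ACTB is such a gene, with adjusted p against wild type of 0.0792 for clone 1 and 0.167 for clone 2 (edgeR's quasi-likelihood test). Along the first dimension of a multidimensional scaling of all libraries, which held 36.24% of the variance, clone 1 lay at −1.50 to −1.27, wild type at −0.36 to 0.24 and clone 2 at 0.97 to 1.83.

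The sharpest differences were genes with no transcript in one clone. In 18 protein-coding genes all 3 libraries of one clone had 0 counts and those of the other had at least 100 in sum, 9 at 0 in clone 1 and 9 at 0 in clone 2. Of the 18, 11 lie on the X chromosome, which holds 3.49% of the tested protein-coding genes. Folds below are bounds from a floor of 3 counts over the 3 libraries of the clone without counts and cover counting error only.

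Clone 2 had no counts of several cancer-testis genes, which are normally active in germ cells and often switched on in tumours. MAGEB2 (chrX) was at 50.9, 42.9 and 39.2 CPM in clone 1, 0 in all clone 2 libraries and 1.94, 2.37 and 2.11 in wild type, which makes clone 2 at least 856-fold lower. CT83 (chrX) was at 10, 10.5 and 15.8 CPM in clone 1 and at 0 in clone 2 (at least 230-fold lower), with wild type at 1.89, 2.79 and 1.66. XAGE2, from a family of near-identical copies whose counts are uncertain, was at least 205-fold lower. NAA11, a testis-enriched N-terminal acetyltransferase on chromosome 4, was at 13.7, 14.2 and 12.9 CPM in clone 1 and 0 in clone 2 (at least 263-fold lower; wild type 3.35, 5.33 and 3.67). For these 4 genes both clones lay outside the wild-type range, on opposite sides of it.

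The type IV collagen genes COL4A5 and COL4A6, which encode chains of basement membrane collagen and start head to head on the X chromosome 347 bases apart in the deposited coordinates, both had 0 counts in clone 2. COL4A5 was at 13.3, 9.56 and 10.2 CPM in clone 1, 0 in clone 2 and 6.07, 4.49 and 4.37 in wild type (at least 212-fold lower in clone 2). COL4A6 was at 2.02, 1.62 and 1.73 CPM in clone 1, 0 in clone 2 and 0.486, 0.635 and 0.402 in wild type (at least 34.4-fold lower). Also at 0 in clone 2 were EYA1, a developmental phosphatase and transcriptional cofactor (at least 137-fold lower), HMGN5, a nucleosome-binding protein (at least 105-fold), and ZFP92, a zinc finger gene (at least 61.9-fold). EYA1 differs from the collagens in that clone 1 (3.88, 9.37 and 7.85 CPM) overlapped wild type (3.84, 5.63 and 7.44).

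Clone 1 in turn had no counts of PCSK1N, which encodes proSAAS, a granin-like inhibitor of the prohormone convertase PCSK1. It had 0 counts in clone 1, 31, 26.6 and 30.2 CPM in clone 2 and 21.8, 15.4 and 17.5 in wild type, which makes clone 2 at least 567-fold higher. PTCHD1, a patched-domain membrane protein, was at 5.51, 7.21 and 8.49 CPM in clone 2 (at least 140-fold higher). CST7, which encodes cystatin F, was at 3.77, 8.43 and 8.45 CPM (at least 139-fold higher), below wild type at 11.5, 17.9 and 17.5. Its neighbour CST4, a secreted cystatin, also had 0 counts in clone 1 against 45 over the clone 2 libraries (at least 15.1-fold higher), while CST3, the widely expressed cystatin C from the same cluster, was present in both clones (76.7, 87.5 and 79.7 against 131, 116 and 116 CPM, log2 difference 0.57, adjusted p = 0.00321). CST7 lies in the stretch of chromosome 20 described below, where the window from 20 to 30 Mb had a median log2 difference of 0.57. SSX1, a cancer-testis gene with near-identical copies, was at 9.34, 4.65 and 3.65 CPM in clone 2, above wild type at 0.631, 0.508 and 0.654 (at least 109-fold higher than clone 1). ZDHHC15 (at least 77.9-fold), DOK6 (54.4), TRABD2B (51.4), ADGRE1 (44.6) and RP1 (35.2) completed the group, and in each of these 5 clone 2 also lay above all wild-type libraries.

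**Figure D3:**
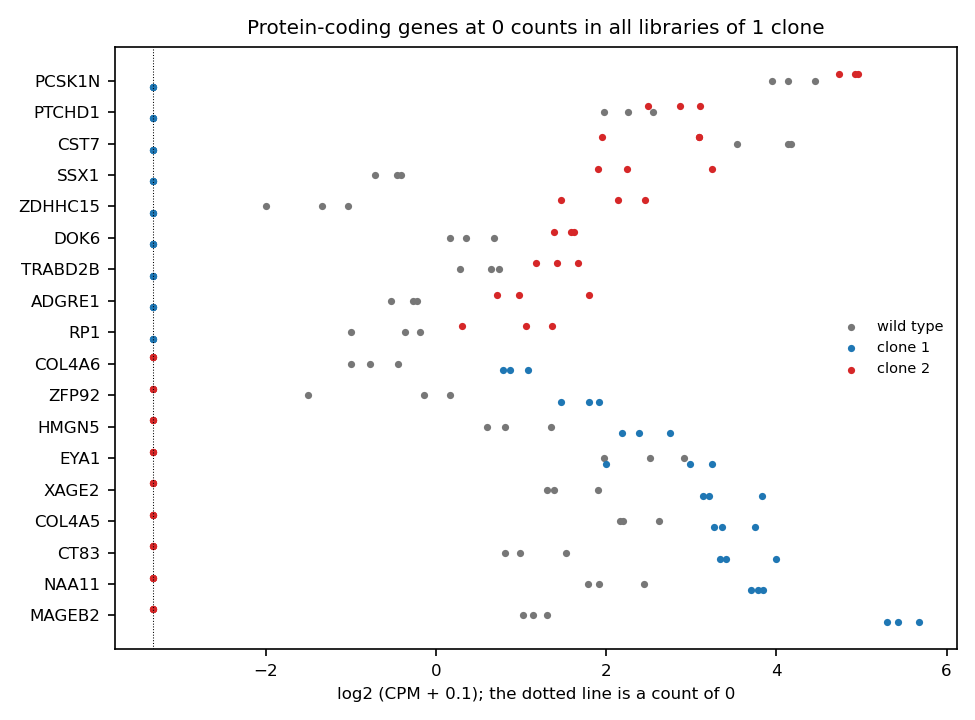
Level of the 18 genes in each library as log2 (CPM + 0.1), with clone 1 in blue, wild type in grey and clone 2 in red, and the dotted line marking a count of 0. The 9 upper genes have all 3 clone 1 points on the line and the 9 lower genes all 3 clone 2 points, while all wild-type points are off it.

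The 250 bases upstream of the start of 5 of these genes, those with the most counts in the clone that has them, are shown so that their CG content can be read beside their levels. They come from RefSeq (GRCh38.p14, 13 of the 18 genes matched) and read 5′ to 3′ on the gene's strand, with every CG dinucleotide, the site of DNA methylation in human promoters, in capitals. MAGEB2 is from chrX:30215313-30215562 (plus strand), CT83 from chrX:116462977-116463226 (minus), NAA11 from chr4:79326062-79326311 (minus), COL4A5 from chrX:108439588-108439837 (plus) and PCSK1N from chrX:48835611-48835860 (minus).
MAGEB2: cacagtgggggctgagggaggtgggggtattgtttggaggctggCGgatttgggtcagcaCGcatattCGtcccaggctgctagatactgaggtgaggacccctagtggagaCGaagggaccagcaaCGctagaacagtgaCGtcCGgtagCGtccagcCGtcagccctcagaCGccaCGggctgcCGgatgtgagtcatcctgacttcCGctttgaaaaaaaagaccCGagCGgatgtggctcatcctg
CT83: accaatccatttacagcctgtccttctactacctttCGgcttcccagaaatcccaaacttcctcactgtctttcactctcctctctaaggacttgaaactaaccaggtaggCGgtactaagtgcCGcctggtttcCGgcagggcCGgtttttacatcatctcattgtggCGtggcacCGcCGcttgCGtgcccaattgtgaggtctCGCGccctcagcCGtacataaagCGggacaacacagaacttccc
NAA11: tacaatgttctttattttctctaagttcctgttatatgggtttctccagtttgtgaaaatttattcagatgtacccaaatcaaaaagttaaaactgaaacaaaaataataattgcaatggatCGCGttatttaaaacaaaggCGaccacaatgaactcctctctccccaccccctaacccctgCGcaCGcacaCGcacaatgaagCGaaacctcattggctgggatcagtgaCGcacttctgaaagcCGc
COL4A5: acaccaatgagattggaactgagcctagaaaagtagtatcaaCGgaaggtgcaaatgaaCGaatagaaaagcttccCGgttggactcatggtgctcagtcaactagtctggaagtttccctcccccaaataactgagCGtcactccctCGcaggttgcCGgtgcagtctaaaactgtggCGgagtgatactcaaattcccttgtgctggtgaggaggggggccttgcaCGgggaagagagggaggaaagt
PCSK1N: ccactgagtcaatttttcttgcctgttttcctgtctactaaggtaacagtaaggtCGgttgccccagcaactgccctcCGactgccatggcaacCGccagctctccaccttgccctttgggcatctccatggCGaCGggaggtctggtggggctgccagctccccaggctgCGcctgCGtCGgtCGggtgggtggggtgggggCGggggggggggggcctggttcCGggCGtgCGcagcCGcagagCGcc
They hold 15 (MAGEB2), 13 (CT83), 9 (NAA11), 8 (COL4A5) and 15 (PCSK1N) CG dinucleotides. At least 10 CG, a motif that reads the same on both strands, were found in 8 of the 13 matched genes (61.5%), in 83.3% of 10490 tested protein-coding genes and in 51.9% of all 27305 upstream windows of this length in the table. The lowest among the 13 were SSX1 and ADGRE1 with 3 each, and the highest was TRABD2B with 37. DNA methylation was not measured in these files.

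Other genes had traces in one clone. CNTN1, a neuronal cell adhesion molecule, was at 0.0518, 0.285 and 0.111 CPM in clone 1, 41.6, 44.7 and 44.5 in clone 2 and 17, 12.1 and 22.5 in wild type (log2 difference 8.09, SE 0.36, adjusted p = 7.09e-10). CNNM1, a cyclin M family membrane protein, rose from 0.104, 0.333 and 0.111 to 23, 30.6 and 38.2 CPM (7.30, SE 0.37, adjusted p = 3.46e-09), and RORB, an orphan nuclear receptor, from at most 0.523 to 17.2, 21.6 and 18.6 CPM (6.20, SE 0.43). PDE1C, a phosphodiesterase for cyclic nucleotides, had 3 counts in clone 1 and 769 in clone 2, a ratio of 258 (95% counting interval 88.0 to 1254), and clone 2 (10.8, 12.1 and 16.4 CPM) overlapped wild type (14.6, 10.7 and 14.3). SPANXB1, a testis gene of a multicopy family, was abundant in both: 25.3, 22.1 and 30.8 CPM in clone 1 and 558, 481 and 445 in clone 2, with wild type at 224, 279 and 234 (4.25, SE 0.19, adjusted p = 7.09e-10). PLXDC2 (5.11), LRRC17 (5.30), NRK (7.01), MUM1L1 (4.97), ARMCX2 (3.97), GSTM1 (3.19, a multigene family member), GPRASP2 (3.02), COL8A2 (2.93), LRRC61 (2.72), ESM1 (2.58) and FRMD3 (2.48) completed the 20 largest increases among called protein-coding genes with at least 5 CPM in the higher clone and no overlap. For ESM1, a secreted proteoglycan best known from endothelial cells, clone 1 (2.07, 1.14 and 2.62 CPM) overlapped wild type (1.89, 0.423 and 3.17) and clone 2 was above both (8.17, 9.2 and 17.4). Of 5 tested genes of an endothelial list that holds ESM1, 2 were called higher and 0 lower (median 0.54). The summed level of the defining markers PECAM1, CDH5, VWF and TEK was 3.66 to 5.51 CPM in clone 1 and 2.42 to 3.2 in clone 2, and the part of such cells in the result was not tested.

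In the other direction, DMD, the dystrophin gene, was at 6.16, 6.23 and 6.74 CPM in clone 1 and 0.186, 0 and 0.19 in clone 2 (log2 difference −5.64, SE 0.49, adjusted p = 2.2e-06), with wild type (4.81, 6.94 and 6.59) at the level of clone 1. LUM, which encodes the matrix proteoglycan lumican, was at 10.9, 10.9 and 7.63 CPM in clone 1 against 0.124, 0.533 and 0.664 (−4.40, SE 0.47). The summed level of 6 fibroblast markers, LUM included, was 24.7 to 28.7 CPM in clone 1 and 13.8 to 18.4 in clone 2: COL1A1 was at 14.6 to 16 against 11.8 to 17.2 CPM, COL3A1 at 1.86, 1.24 and 0.78 against 0.866, 0.194 and 0.38, and DCN and PDGFRA at 0.155 or less throughout. Their part in the result was not tested. SHH, the Hedgehog ligand, was at 8.34, 13.5 and 8.46 CPM in clone 1, 0.619, 1.16 and 1.04 in clone 2 and 4.86, 4.99 and 5.68 in wild type (−3.40, SE 0.32, adjusted p = 5.1e-06). LILRB1, an inhibitory receptor known from leukocytes, was at 3.16, 8.89 and 8.8 CPM in clone 1 and at most 0.433 in clone 2 (−4.88, SE 0.70), and the summed level of the 6 immune markers was 1.19 to 1.76 CPM in clone 1 and 0.186 to 0.436 in clone 2. NLRP2 (−6.36), CLIC2 (−5.96), OASL (−3.52), RFX8 (−3.25), ADAM28 (−3.25), MARCH1 (−2.73) and SRPK3 (−2.68) fell as well. CLIC2 and SRPK3 lie on the X chromosome beyond 150 Mb and MARCH1 on chromosome 4 beyond 160 Mb, in stretches described below. SLCO4C1, an organic anion transporter, fell by 3.69 on the log2 scale, a call that failed without clone 2 replicate 3. DDX53 left 2 counts in clone 2 against 340, a ratio of 169 (95% counting interval 46.4 to 1400).

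Neighbouring genes moved together along 6 stretches of chromosomes, which were picked after all 294 windows of 10 Mb with at least 10 tested genes had been seen. The windows' median log2 differences lay between −0.39 and 0.30 at their 5th and 95th percentiles. Low medians were also found outside the 6, at 60 to 70 Mb of chromosome 4 (−0.98) and 140 to 150 Mb of X (−0.72). On chromosome 9 the windows from 40 to 50 Mb (−0.87) and 60 to 70 Mb (−0.74) were low too. On chromosome 9 from its start to 40 Mb, 77 of 148 tested genes rose in clone 2 and 6 fell, with a median log2 difference of 0.67. Relative to the wild-type mean, the median level of these genes was −0.11, −0.11 and −0.08 on the log2 scale in clone 1 and 0.59, 0.61 and 0.55 in clone 2. VCP, the segregase of ubiquitinated proteins, went from 192, 201 and 173 to 649, 606 and 760 CPM (1.83, SE 0.18, adjusted p = 9.29e-06). On chromosome 20 from 20 to 60 Mb, 130 of 278 genes rose and 14 fell (median 0.53), and here both clones departed from wild type: clone 1 libraries were at −0.30, −0.35 and −0.31 and clone 2 libraries at 0.20, 0.15 and 0.16. TGM2, a transglutaminase that cross-links proteins (128, 120 and 113 against 399, 456 and 563 CPM), PYGB, brain glycogen phosphorylase (65.3, 56.9 and 56.5 against 196, 183 and 201), TPX2, E2F1, ITCH and POFUT1 lie there. JAG1 lies outside it, in the window from 10 to 20 Mb of the same chromosome, whose median was −0.07. In that window both clones were below the wild-type mean, clone 1 at −0.29, −0.32 and −0.17 and clone 2 at −0.19, −0.13 and −0.24.

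On the X chromosome beyond 150 Mb, 47 of 69 genes fell in clone 2 and 2 rose (median −0.91). Clone 1 was above wild type in all 3 libraries (0.63, 0.62 and 0.62) and clone 2 below it (−0.16, −0.23 and −0.17). TAZ, which at this position is tafazzin, the cardiolipin transacylase, was at 37.6, 41 and 49.6 CPM in clone 1, 10.9, 14.9 and 11.6 in clone 2 and 17.3, 21.4 and 16.1 in wild type (−1.78, SE 0.18, adjusted p = 1.15e-05). The ribosomal protein gene RPL10 (−0.65, not called without clone 1 replicate 1) and ZFP92, at 0 counts in clone 2, lie in the same stretch. At the end of chromosome 10 beyond 130 Mb, 15 of 24 genes fell and 0 rose (median −1.26), with clone 1 at 0.52, 0.47 and 0.59 and clone 2 at −0.77, −0.46 and −0.49. ADAM8, a cell-surface metalloprotease, went from 223, 254 and 260 to 79.7, 95.2 and 72 CPM, and BNIP3, a mitophagy receptor, lies there too (−1.07). Chromosome 4 beyond 160 Mb had 32 of 85 genes lower and 0 higher (median −0.70), and chromosome 5 from 150 to 170 Mb had 36 of 68 higher and 1 lower (median 0.49). With the mitochondrial share as a covariate, the 6 medians were 0.68 (chromosome 9), 0.50 (20), −1.0 (X), −0.76 (10), −0.55 (4) and 0.33 (5).

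**Figure D4:**
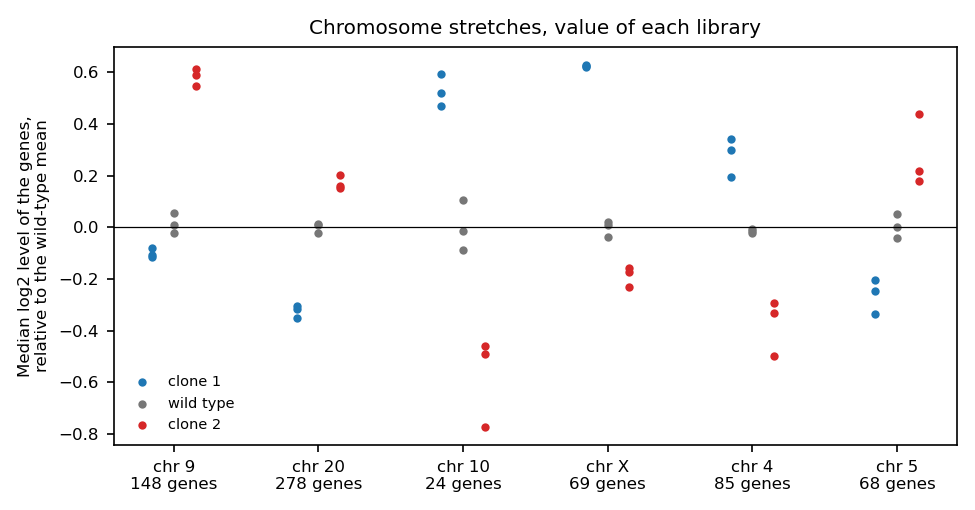
Median log2 level of the tested genes of 6 chromosome stretches in each library, relative to the mean of the wild-type libraries (0), with clone 1 in blue, wild type in grey and clone 2 in red. Clone 1 and clone 2 fall on opposite sides of 0 in all 6. Clone 2 replicate 1 stands apart from replicates 2 and 3 on chromosome 5 (0.44 against 0.18 and 0.22) and chromosome 10 (−0.77 against −0.46 and −0.49).

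Genes of the actin cytoskeleton were mostly higher in clone 2. Of 17 tested contractile and actin-binding genes 10 rose (58.8%) and 1 fell (5.88%), with a median log2 difference of 0.74. The same values for protein-coding genes above a log2 CPM of 4 were 33.3%, 12.3% and 0.21. ACTN1, an actin cross-linker, was at 566, 537 and 501 CPM in clone 1, 1349, 1259 and 1643 in clone 2 and 737, 863 and 1051 in wild type (1.41, SE 0.18, adjusted p = 8.62e-05). CALD1, caldesmon, rose from 81.5, 59.6 and 65.5 to 144, 166 and 184 CPM (1.26), and MYLK, myosin light chain kinase, by 1.07. CNN1 was called from 3 counts in clone 1 and 40 in clone 2, with overlapping libraries, and held in 2 of 9 fits without 1 library. The gene that fell was DMD, given above. The covariate fit with the mitochondrial share called 3 members higher and 1 lower.

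Mesenchymal and epithelial genes were called in both directions, more of them higher in clone 2. Of 17 genes of the epithelial-mesenchymal transition 8 rose (47.1%) and 2 fell (11.8%), with a median of 0.57. Of 23 epithelial adhesion genes and keratins 9 rose (39.1%) and 2 fell (8.7%), with a median of 0.75. Protein-coding genes above a log2 CPM of 4 had 33.3%, 12.3% and 0.21. VIM, the mesenchymal intermediate filament, was at 926, 838 and 770 CPM in clone 1, 1823, 1773 and 2301 in clone 2 and 1079, 1040 and 1536 in wild type (1.22, SE 0.20, adjusted p = 0.000394). PRRX1 (1.46) and TNC (1.07) rose with it, while POSTN, the matrix protein periostin, and S100A4 fell. S100A4, a calcium-binding protein known for its link to motility, went from 184, 174 and 205 to 53.6, 38.5 and 21.3 CPM (−2.31, SE 0.33, adjusted p = 0.000439). KRT18 rose from 161, 140 and 111 to 370, 271 and 343 CPM (1.26, SE 0.18) and its partner KRT8, whose annotated span overlaps that of KRT18, by 1.16. EPCAM, the epithelial adhesion molecule, fell from 21.8, 25.4 and 25.3 to 13.7, 11.7 and 11.5 CPM (−0.98, SE 0.16, adjusted p = 0.000452). Without clone 2 replicate 3, 5 of the mesenchymal genes were called higher and 1 lower. With the mitochondrial share as a covariate, 1 member of the 2 lists was called, an epithelial gene that was higher.

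YAP1 and several genes of its pathway rose in clone 2. Of 20 tested YAP targets and Hippo genes 12 rose (60%) and 0 fell, with a median of 0.59. In protein-coding genes above a log2 CPM of 4, 33.3% rose and 12.3% fell, with a median of 0.21. The scaffold proteins AMOTL2 (86.6, 67.2 and 63.5 against 154, 143 and 157 CPM, 1.06, SE 0.15) and AMOTL1 (0.98) and the kinase LATS2 (0.83), all of which hold YAP in check, had the smallest adjusted p. YAP1 itself rose from 114, 106 and 104 to 155, 165 and 189 CPM (0.65, SE 0.15, adjusted p = 0.00324). The target CTGF rose by 0.77 on the log2 scale, a call that failed without clone 1 replicate 1 or 2 or clone 2 replicate 3, while ANKRD1 was not called (0.14, SE 0.20, adjusted p = 0.617). Of the 20, 7 were called higher without clone 2 replicate 3, and 0 with the mitochondrial share as a covariate.

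Genes of several cell cycle phases moved. Among 17 G1 cyclins, kinases and inhibitors 9 rose and 0 fell (median 0.61): CCND1 went from 261, 242 and 214 to 503, 463 and 570 CPM (1.10, SE 0.16, adjusted p = 0.000221) and CDK6 rose by 1.09, but so did the inhibitors CDKN1A (0.61) and RB1 (0.84). Among 35 DNA replication genes 19 rose and 5 fell (median 0.48). MCM2, of the replicative helicase, was at 69.7, 63.5 and 49 CPM in clone 1, 168, 155 and 199 in clone 2 and 87.4, 100 and 128 in wild type (1.52, SE 0.18, adjusted p = 3.03e-05), and FEN1 (1.07) and CDT1 (1.04) followed. PCNA, the sliding clamp, fell by 0.56 on the log2 scale, from 348, 389 and 369 to 304, 235 and 214 CPM (adjusted p = 0.0173, not called without clone 1 replicate 2 or 3 or clone 2 replicate 3). Among 32 mitosis and spindle genes 10 rose (31.2%) and 5 fell (15.6%), with a median of 0.22. That is near the 33.3%, 12.3% and 0.21 of protein-coding genes above a log2 CPM of 4. The G1 list had 52.9% higher and 0% lower, and the replication list 54.3% and 14.3%. TPX2, an activator of Aurora A, rose by 1.45 and KIF2C by 0.80. The checkpoint gene MAD2L1 fell by 0.67 and MKI67 was not called (−0.31). Without clone 1 replicate 3, 11 of the replication genes were called higher, and without clone 2 replicate 3 also 11. Of the replication genes 2 were called lower without clone 1 replicate 1, and 3 without clone 1 replicate 2 or clone 2 replicate 3. The number of mitosis genes called lower was 2 without clone 1 replicate 3. With the mitochondrial share as a covariate 1 replication gene (median 0.039), 1 mitosis gene (median 0.025) and 0 G1 genes were called higher, and 0 of the 3 lists lower.

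Several ligands of the epidermal growth factor receptor were lower in clone 2. In a list of 26 ligands, receptors and MAPK feedback genes, 6 rose and 6 fell (23.1% each), and 5 of the 6 that fell were ligands. The shares over all tested genes were 19.8% and 14.1%. EREG, epiregulin, was at 45.8, 63.6 and 59.8 CPM in clone 1, 21.6, 19.5 and 12.8 in clone 2 and 45.1, 68.8 and 45.1 in wild type (−1.65, SE 0.22, adjusted p = 9.04e-05). EGF (−1.93), AREG, BTC (−1.72, not called without clone 1 replicate 2 or 3 or clone 2 replicate 3) and TGFA (−0.61, not called without clone 1 replicate 2) fell as well, and HBEGF was not called (−0.09). EGFR was not called (0.37), and the phosphatase DUSP1 rose from 5.9, 7.99 and 8.41 to 17.6, 17.3 and 25.1 CPM (1.43, SE 0.22). Without clone 2 replicate 3, 2 members were called higher and 5 lower, without clone 1 replicate 1 it was 3 higher, and with the mitochondrial share as a covariate 0 were called.

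All 13 mitochondrially encoded mRNAs had lower fitted levels in clone 2, and 12 were called, with a median of −1.43. MT-CO1, the catalytic subunit of cytochrome c oxidase, was at 4307, 6795 and 8859 CPM in clone 1, 1827, 3447 and 2034 in clone 2 and 5345, 7531 and 3564 in wild type (−1.45, SE 0.33, adjusted p = 0.00361). The spread within each clone was wide, and without clone 2 replicate 3 the number called was 6 and without clone 2 replicate 1 it was 7. With the mitochondrial share itself as a covariate it was 0. That share is summed from these same mRNAs, so this fit cannot test them. MT-ATP6 was not called without clone 2 replicate 1 or 3. Of 42 nuclear-encoded respiratory chain subunits 7 rose (16.7%) and 10 fell (23.8%), with a median of −0.25, beside 19.8% and 14.1% of all tested genes. COX7A2, a small subunit, went from 349, 306 and 423 to 243, 182 and 127 CPM (−0.96, SE 0.21). SDHA, the large flavoprotein of complex II, went from 121, 106 and 95.2 to 230, 222 and 272 (1.17, SE 0.16). The number that fell was 6 without clone 1 replicate 3 and 21 without clone 2 replicate 1, and the number that rose was 3 without clone 1 replicate 3 and 4 without clone 1 replicate 2 or clone 2 replicate 3.

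Of 34 glycolysis and hypoxia-response genes in one list, 12 were higher (35.3%) and 5 lower (14.7%), with a median of 0.28. Those values are near the 33.3%, 12.3% and 0.21 of protein-coding genes above a log2 CPM of 4. HK1, the first enzyme of glycolysis, rose from 95.6, 103 and 105 to 214, 251 and 309 CPM (1.35, SE 0.18, adjusted p = 0.000111), with GPI (1.11), ENO1 (0.97), GAPDH (0.84) and PKM (0.75). The 5 that fell were CA9 (13.2, 27 and 27.6 against 4.95, 6.54 and 3.37 CPM, −2.19), CA12 (−0.90), ANKRD37 (−1.52), BNIP3 (−1.07) and PDK1 (−0.69, not called without clone 1 replicate 2 or 3 or clone 2 replicate 1), all known hypoxia-induced genes. VEGFA, another one, fell from 730, 822 and 974 to 348, 474 and 306 CPM (−1.16, SE 0.22, adjusted p = 0.00109). CA9 fell although it lies in the stretch of chromosome 9 where most called genes rose, and ANKRD37 and BNIP3 lie in stretches where they fell. Of the 34, 2 were called higher and 1 lower with the mitochondrial share as a covariate.

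VEGFA also belongs to 15 tested genes of lymph node homing and lymphatic growth, the setting named in the series title. Of these 1 rose (6.67%) and 3 fell (20%), with a median of −0.43, beside 19.8% and 14.1% of all tested genes. VEGFC, the main lymphatic growth factor, was at 62, 57.5 and 56 CPM in clone 1, 42.2, 39.4 and 41.9 in clone 2 and 41.2, 35.9 and 49.7 in wild type (−0.51, SE 0.14, adjusted p = 0.0128). ANGPT1 fell by 1.19, a call that failed without clone 1 replicate 2 or 3 or clone 2 replicate 1. PDPN, podoplanin, rose from 42.5, 37.6 and 35 to 79.2, 55.8 and 50.9 CPM (0.69, SE 0.17, adjusted p = 0.00595), and both clones lay above wild type (31, 26.3 and 24.8). The chemokine receptors CXCR4 (−0.43) and CCR7 (−2.31) were not called.

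Among 43 interferon-stimulated genes 7 were higher (16.3%) and 8 lower (18.6%), near the shares of 19.8% and 14.1% over all tested genes, with a median of −0.36. OASL was at 19.1, 7.75 and 6.68 CPM in clone 1 and 1.48, 0.533 and 0.949 in clone 2 (−3.52, SE 0.52), and IFI27 fell by 1.41. For MHC class II presentation 5 of 12 genes fell and 1 rose (median −0.75). CTSS fell by 2.15 and HLA-DMA by 1.17 (not called without clone 1 replicate 3), both from low levels. CD74, the invariant chain, rose from 17.8, 17.4 and 11.6 to 53.6, 25.9 and 26.6 CPM (1.18). CD74 lies in the stretch of chromosome 5 where most called genes rose. Of 18 class I genes B2M (−0.78, not called without clone 1 replicate 3 or clone 2 replicate 3), ERAP2 (−1.17) and NLRC5 (−0.84) fell and 0 rose. Without clone 1 replicate 3, 2 of the class II genes were called lower, and without clone 1 replicate 1 or clone 2 replicate 3 it was 3. Of the interferon-stimulated genes 3 were called higher and 5 lower without clone 2 replicate 3, and 4 were called higher without clone 1 replicate 3 or clone 2 replicate 2.

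Matrix genes were called in both directions, proteases and integrins at shares near the 19.8% and 14.1% of all tested genes. Of 21 collagens 1 rose and 4 fell (median −0.05), COL4A5 and COL4A6 being the extremes and COL13A1 falling by 0.44 (not called without clone 1 replicate 3 or clone 2 replicate 1). Of 27 laminins, glycoproteins and proteoglycans 3 rose and 6 fell: LAMA3, a chain of the epithelial laminin 332, went from 68.3, 72.8 and 97 to 31.8, 33.2 and 29.8 CPM (−1.33, SE 0.18, adjusted p = 0.000122), and TNC, tenascin C, rose as given above. Of 30 matrix proteases and inhibitors 7 rose and 3 fell, and TIMP4 fell by 2.30. Of 15 integrin subunits 3 rose and 2 fell, with ITGA10, a collagen receptor, going from 25.7, 32.3 and 37.6 to 5.07, 8.81 and 4.46 CPM (−2.38, SE 0.33). Without clone 2 replicate 3, 2 members of the laminin list were called lower, and without clone 1 replicate 2 it was 3. Without clone 2 replicate 1, 7 of the proteases and inhibitors were called lower, and without clone 1 replicate 3, 2 of the collagens. Of the integrins 1 was called higher without clone 1 replicate 1 or 3 or clone 2 replicate 3, and 4 were called lower without clone 1 replicate 1.

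The 2 tested catalytic subunits of protein kinase A moved in opposite directions. PRKACA, a catalytic subunit, rose from 61.2, 57.5 and 52.1 to 115, 110 and 123 CPM (1.03, SE 0.13, adjusted p = 7.87e-05), while the other, PRKACB, fell from 84.5, 83.8 and 69.1 to 38.5, 34.7 and 36.5 (−1.11, SE 0.13, adjusted p = 4.28e-05). The regulatory subunit genes PRKAR1A (1.02), PRKAR2A (1.03) and PRKAR2B (1.07) rose. In all, 9 of 28 genes of cyclic nucleotide signalling rose (32.1%) and 1 fell (3.57%), with a median of 0.04. Among all tested genes 19.8% rose and 14.1% fell. Without clone 2 replicate 1, 3 of the 28 were called lower.

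Members of the remaining lists were called as follows, beside 19.8% higher and 14.1% lower over all tested genes. Shares higher and lower were 16.1% and 6.45% for TGF-beta signalling, 12.9% and 6.45% for WNT and 16.7% and 16.7% for inflammatory genes. They were 12.5% and 3.12% for the cholesterol list, 3.7% and 3.7% for protocadherins and 3.85% and 9.62% for ribosomal proteins. Cancer-testis genes had 23.1% and 53.8%, neural genes 31.2% and 18.8% and DNA methylation genes 29.4% and 11.8%. Among 13 tested cancer-testis genes, of 35 in the file and 18 without a count in either clone, 3 rose and 7 fell (median −3.81). Of 16 neural adhesion and synapse genes 5 rose and 3 fell, NRCAM rising by 1.47. GABRE, a GABA receptor subunit, fell from 87.5, 52 and 70.2 to 23.6, 23.8 and 12.2 CPM (−1.82). It lies in the stretch of the X chromosome where most called genes fell. Of 17 genes that write, read or erase DNA methylation 5 rose, among them DNMT1, the maintenance methyltransferase (262, 225 and 227 against 389, 420 and 512 CPM, 0.89), and its cofactor UHRF1 (1.08), and 2 fell. Of 31 genes of TGF-beta, activin and BMP signalling 5 rose and 2 fell, with TGFB2 (0.74) and FST (0.79) higher. Of 31 WNT genes 4 rose and 2 fell, with ROR2 at 1.21 and FZD8 at −1.15. Of 30 inflammatory genes 5 rose and 5 fell, with SOD2 at 1.15 and CD14 at −1.74 (not called without clone 1 replicate 2 or 3 or clone 2 replicate 1 or 3). Among 52 cytosolic ribosomal proteins 2 rose, RPL3 (0.66) and RPL4 (0.58), both not called without clone 1 replicate 3, and 5 fell; the number that fell was 0 without clone 1 replicate 1 and 27 without clone 2 replicate 1. Of 32 cholesterol and fatty acid genes 4 rose, ACLY among them (1.27), and 1 fell, and of 27 protocadherins 1 rose and 1 fell (PCDHB2, −2.21). Leaving out 1 library moved the number called higher to 2 for TGF-beta signalling (without clone 1 replicate 2 or 3), 1 for WNT (without clone 1 replicate 3 or clone 2 replicate 3), 2 for inflammatory genes (without clone 1 replicate 2), 3 for DNA methylation (without clone 1 replicate 1 or 3 or clone 2 replicate 3) and 2 for the cholesterol list (without clone 2 replicate 3). The number called lower became 0 for TGF-beta signalling without clone 1 replicate 1, 2 or 3 or clone 2 replicate 3. For inflammatory genes it was 2 without clone 1 replicate 2 and 3 without clone 1 replicate 3 or clone 2 replicate 3. For the cholesterol list it was 5 without clone 1 replicate 1 and 0 without clone 1 replicate 2 or 3 or clone 2 replicate 1.

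**Figure D5:**
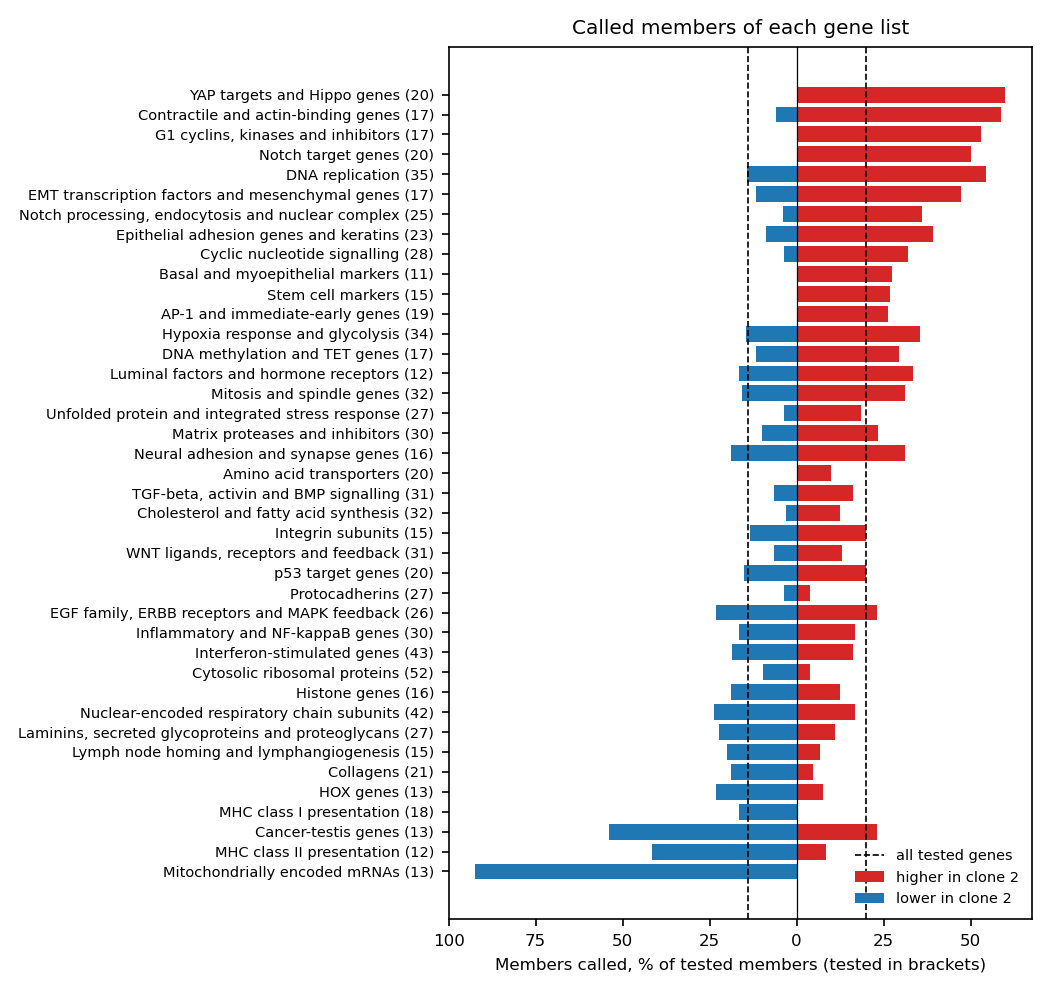
Share of tested members called higher (red, to the right) and lower (blue, to the left) in clone 2, for the 40 gene lists with at least 11 tested members, whose number is in brackets; dashed lines mark the shares over all tested genes, 19.8% and 14.1%. Mitochondrially encoded mRNAs reach furthest to the left and YAP and Hippo genes furthest to the right.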

How the data were processed

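Counts of 9 RNA-seq libraries were used: 3 per clone, and 3 of wild type as a reference. These are raw gene counts, deposited by the authors as 2 tables that repeat the same wild-type columns. STAR, Subread's featureCounts, DESeq2 and GRCh38 are named, with no versions, per the submitters' processing notes. Annotation release and strandedness: not given in the sources used here. Reads of overlapping or antisense genes therefore cannot be separated. Gene type came from GENCODE 29 (37335 of 56505 symbols) or RefSeq synonyms (676), otherwise unknown.

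EdgeR 4.0.16 in R 4.3.3 fitted all 9 libraries as 3 groups (TMM, filterByExpr with a minimum count of 10, robust quasi-likelihood, 6 residual degrees of freedom), with two-sided p-values adjusted by Benjamini-Hochberg over 16921 genes and called under 0.05. CPM uses TMM-scaled library sizes. The biological coefficient of variation was 20.3% (17.4% in clone 1, 23% in clone 2). The scripts were tested on simulated data. Members and the 44 gene lists (1142 entries, 7 matched by an older symbol) were chosen with earlier results of these data known. Genes were named by rule: JAG1; the 20 largest differences per direction among called protein-coding genes of at least 5 CPM without overlap; those at 0 counts in one clone and at least 100 in the other; the 10 most abundant called genes; the 6 largest per direction with wild type between; up to 3 called members per list by adjusted p; and the 5 called non-coding genes per direction by adjusted p. Other members, and the genes of chromosome stretches, were named after their values were seen. Alternatives were RLE factors, no filter, DESeq2 1.42.0, limma-voom 3.58.1, the 6 clone libraries alone, a replicate block, a GC and length correction (87.3% of genes), each library left out and, added after the data were seen, the mitochondrial share.

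Results for certain genes are not reported here.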

Additional observations from a re-analysis of the deposited data

How the results depend on the processing

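The 5733 calls between the clones (3353 higher, 2380 lower) were within 1.5 times of that under RLE factors, without a filter, with DESeq2 and limma-voom, in the 6 clone libraries alone and with the GC and length correction. Leaving out each library gave 3518 to 5765 called, 2000 to 3305 higher and 1396 to 2666 lower. With the mitochondrial share as a covariate 391 were called, 266 higher and 125 lower, and JAG1 stood at −0.72 (adjusted p = 0.178); the cause was not tested. Leaving out each library moved JAG1 between −0.61 and −0.37. Of 169 other named genes 147 were called in all 9 fits without 1 library, and 69 with the covariate. Reversed was MT-ATP6 with the covariate (0.218), a share that includes its own counts and so cannot test it. So were 5 uncalled Notch genes. NOTCH1 reversed with the GC and length correction (−0.043) or the covariate (−0.215), and NOTCH3 (0.074) and JAG2 (0.03) with the covariate. NOTCH4 (−0.633 to 0.312) and DLL1 (−0.348 to 0.39) did so when single libraries were left out.

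Same-numbered libraries of the 2 clones deviated together with r of 0.388, −0.0378 and 0.034, and differently numbered ones with r from −0.31 to 0.369. With 3 libraries per clone, these values cannot decide whether the numbers pair the samples. With the replicate number as a block 7101 genes were called, 3987 higher and 3114 lower, and JAG1 stood at −0.49 (adjusted p = 0.00415). Precision is limited by 3 libraries per clone and by low counts: among genes at or below a log2 CPM of 0, 1.67% were called higher and 9.14% lower.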

Other observations

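Some non-coding genes also differed between the clones. LINC00665, a long non-coding RNA of chromosome 19, was at 0.311, 0 and 0.111 CPM in clone 1, 15, 8.86 and 13 in clone 2 and 3.45, 4.19 and 3.92 in wild type (log2 difference 6.41, SE 0.51, adjusted p = 6.52e-07 by edgeR). MIR34AHG, the host transcript of microRNA 34a, was at 5.85, 7.56 and 6.35 CPM in clone 1, 0.247, 0.678 and 0.0474 in clone 2 and 0.777, 0.804 and 0.704 in wild type (−4.31, SE 0.53, adjusted p = 5.37e-05). HERC2P2, a pseudogene whose reads may be shared with other copies, was at 196, 144 and 187 CPM in clone 1 and 27.8, 40.8 and 20.5 in clone 2 (−2.56, SE 0.25). LINC00989, on chromosome 4 like NAA11, had 160 counts in clone 1 and 0 in clone 2, at least 53-fold lower. Of 171 transcribed unprocessed pseudogenes 65 were called lower and 0 higher, and of 305 long intergenic RNAs 64 lower and 12 higher.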
